A study of Cavia porcellus with 30 samples.

Results

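The transcripts described here were lower at the high dose of thioacetamide at both times after dosing in guinea pig liver, and they were chosen by their measured levels. A transcript was a member when its mean level in high dose livers was at most 0.6 of the vehicle mean at 9 h and again at 33 h, with 0.1 added to each mean of 5 animals, and when the mean of the 10 vehicle animals was at least 5 TPM (the level of a transcript per unit of length as a share of its library, scaled to the same sum in every library). Of 25824 listed transcripts, 8116 reached 5 TPM in vehicle livers, and 95 of these were members, 1.17% of that set. The animals were Hartley guinea pigs, an outbred laboratory breed, and each library came from the liver of 1 animal. All groups held 5 animals. The vehicle animals received saline (3 ml/kg), the low dose animals 25 mg/kg thioacetamide and the high dose animals 100 mg/kg thioacetamide, and separate animals of each kind were sampled at 9 h and at 33 h. The study was set up to obtain different degrees of liver injury. The low dose animals had no part in choosing the members.

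Thioacetamide is oxidised by liver enzymes to reactive products that damage hepatocytes, mainly around the central veins, and it is widely used to model liver injury in animals. In injured liver, transcripts of the differentiated hepatocyte, such as those for metabolism, transport and secretion, are commonly reduced while those of stress responses and repair increase. In whole liver, fewer cells of a type and less RNA per cell cannot be told apart. The deposited tables identify transcripts by Ensembl identifier, and the reference gene table used here matched 0 of them, so the members carry no gene names and neither their functions nor liver cell markers were examined. Members are therefore called by their rank of abundance in vehicle livers, from rank 1 to rank 95, with their length.

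Library totals ran from 21352824 to 33842322 estimated counts, and the members had a median of 845 estimated counts per library. All 95 members passed the count filter of the test across 18239 transcripts. In vehicle livers the 3 most abundant members lay above 1000 TPM, 14 between 100 and 1000 TPM, 57 between 10 and 100 TPM and 21 between 5 and 10 TPM. The 5 most abundant held 59.9% of the members' summed vehicle level.

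In high dose livers the members had median ratios to vehicle of 0.481 at 9 h and 0.428 at 33 h, values that the choice of members fixed to be low. The ratios at 9 h reached down to 0.160 and those at 33 h to 0.0716. The ratio at 33 h was below that at 9 h for 60 of the 95. At 9 h all 5 high dose animals lay below all 5 vehicle animals for 66 members, against 17.1% of the transcripts at or above 5 TPM, and at 33 h for 65 members, against 9.97%. Both separations held for 53 members, a joint count that was not made over the other transcripts. These counts describe the choice and carry no test. The 3 members just inside the ratio threshold had larger ratios of 0.5983, 0.5996 and 0.5996, and the 3 transcripts just outside it had 0.604, 0.606 and 0.607. At the floor, the 3 least abundant members had vehicle means of 5.15, 5.19 and 5.23 TPM. Of the transcripts below the floor that met both ratio limits, the 3 nearest had 4.93, 4.82 and 4.56 TPM. When the rule was repeated without each of the 20 vehicle and high dose animals in turn, 56 members were kept every time and 39 were lost at least once.

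Low dose values are given here beside those of the high dose, which the rule held to at most 0.6 of vehicle at both times, so the distance between the doses is a description. In each animal the level of every member was expressed as a percent of the vehicle mean of the same time, and the median over the 95 members was taken. At 9 h this median was 50.6 ± 6.38% in low dose animals and 46.5 ± 1.69% in high dose animals (SD, n = 5 each). The 5 low dose animals ran from 42.2% to 57.0% and the 5 high dose animals from 44.2% to 48.9%, so the doses overlapped. At 33 h the doses stood apart, at 76.0 ± 10.1% in low dose animals and 40.0 ± 9.86% in high dose animals (SD, n = 5 each). The lowest low dose animal was at 59.4% and the highest high dose animal at 53.9%, with no overlap. The same medians over the other transcripts of at least 5 TPM at 9 h were 101 ± 5.32% in low dose and 91.6 ± 3.89% in high dose animals. At 33 h they were 129 ± 11.9% and 146 ± 4.997% (SD, n = 5 each). TPM is a share of the library, so a member at 76.0% of its vehicle level in 33 h low dose livers stood in libraries where the typical other transcript was at 129%.

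**Figure D1:**
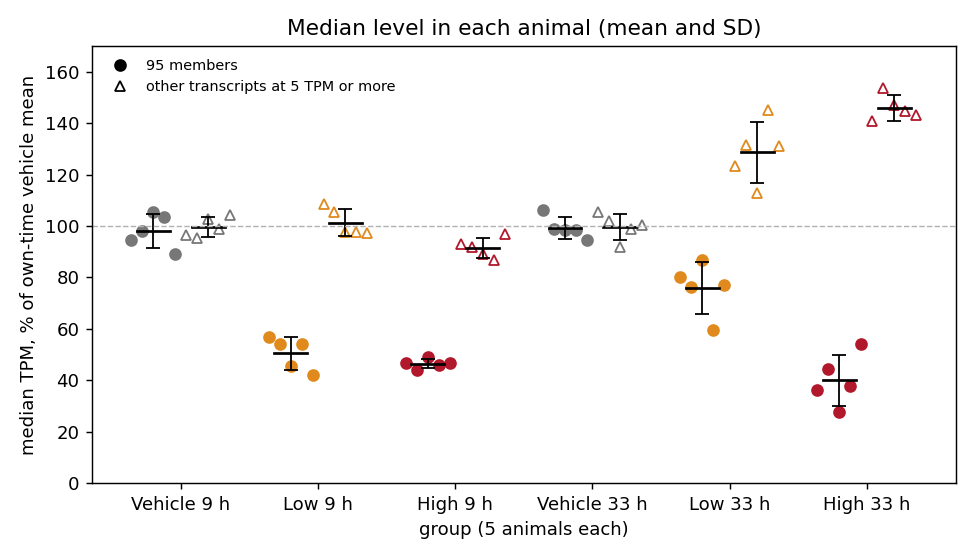
Median TPM of the 95 members (filled circles) and of the other transcripts of at least 5 TPM (open triangles) in each animal, as a percent of the vehicle mean of the same time (y axis), by group (x axis); bars give the mean and SD of 5 animals. The members of both doses overlap at 9 h, near 50.6% and 46.5%, and separate at 33 h, near 76.0% and 40.0%, while the other transcripts move above 100% at 33 h.

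The summed level of the members gave the same order with more spread. It was 11234 ± 1404 TPM in vehicle livers, 5704 ± 1070 TPM in low dose livers and 5338 ± 1260 TPM in high dose livers at 9 h (SD, n = 5 each). At 33 h it was 10185 ± 2560 TPM in vehicle livers, 7241 ± 1479 TPM in low dose livers and 3724 ± 1245 TPM in high dose livers (SD, n = 5 each). At 9 h no treated animal reached the lowest vehicle animal, which was at 9261 TPM, the highest treated animal being at 7155 TPM. At 33 h a low dose animal at 9737 TPM lay above the lowest vehicle animal at 7729 TPM, so those groups overlapped. Few members set this sum, and without the 5 most abundant the vehicle animals at 33 h ran from 3902 to 4546 TPM and the low dose animals from 2436 to 3456 TPM, with no overlap.

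The most abundant member, ENSCPOT00000000270.3, of 608 bases, varied widely between animals of every group. Its level in vehicle livers at 9 h was 1123, 2410, 3573, 2732 and 2465 TPM in the 5 animals, and at 33 h it was 459, 2323, 4322, 2242 and 1481 TPM. Low dose livers held 2376, 974, 1024, 1736 and 1352 TPM at 9 h and 845, 1040, 2316, 1097 and 1113 TPM at 33 h. High dose livers held 2360, 457, 556, 1906 and 1381 TPM at 9 h and 594, 419, 334, 897 and 1393 TPM at 33 h. The groups overlapped in all these comparisons, and the means that made it a member at 9 h were 2461 ± 881 TPM in vehicle and 1332 ± 830 TPM in high dose livers (SD, n = 5 each). It did not pass the test at the low dose, with log2 fold changes against vehicle of -0.82 ± 0.50 at 9 h and -1.13 ± 0.51 at 33 h (SE, edgeR adjusted p = 0.264 and 0.105). The member of rank 2, of 822 bases, followed it animal by animal, the level of rank 1 being 1.57 to 2.18 times that of rank 2 in all 30 libraries. These 2 members are distinct entries whose counts were whole numbers in all 30 libraries.

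The member of rank 3, of 1985 bases, varied less between animals at 9 h. It measured 1419, 1465, 1084, 1362 and 1252 TPM in vehicle livers at 9 h, 420, 499, 483, 428 and 400 TPM in low dose livers and 471, 531, 761, 464 and 622 TPM in high dose livers. Every treated animal was below every vehicle animal at this time. At 33 h the vehicle livers held 858, 1004, 1076, 1255 and 868 TPM and the low dose livers 840, 663, 1132, 893 and 950 TPM, which overlapped, while the high dose livers held 270, 148, 370, 559 and 650 TPM, all below both. Rank 4, of 1869 bases, had its lowest group at the high dose at 9 h, at 241, 170, 211, 202 and 167 TPM against 788, 1554, 676, 1353 and 539 TPM in vehicle livers. Its low dose livers went from 347, 357, 201, 441 and 250 TPM at 9 h to 799, 742, 1149, 444 and 808 TPM at 33 h, with no overlap between those times.

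Ranks 9 and 10 were tightly grouped in vehicle livers and differed from each other late. Rank 9, of 3143 bases, was at 179 ± 5.95 TPM in vehicle livers at 9 h, 89.9 ± 10.8 TPM in low dose and 81.4 ± 12.1 TPM in high dose livers (SD, n = 5 each). At 33 h it was at 187 ± 17.4, 156 ± 21.3 and 85.0 ± 12.8 TPM in the same order (SD, n = 5 each), so only the low dose mean lay nearer to vehicle than at 9 h. Rank 10, of 3248 bases, was at 171 ± 13.3, 101 ± 13.1 and 97.6 ± 11.2 TPM at 9 h and at 154 ± 18.9, 90.0 ± 27.6 and 32.1 ± 12.6 TPM at 33 h in vehicle, low dose and high dose livers (SD, n = 5 each). Its low dose level thus stayed near that of 9 h. Its high dose level at 33 h, from 21.7 to 52.9 TPM, was below every high dose animal of 9 h, which ran from 85.3 to 110 TPM.

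**Figure D2:**
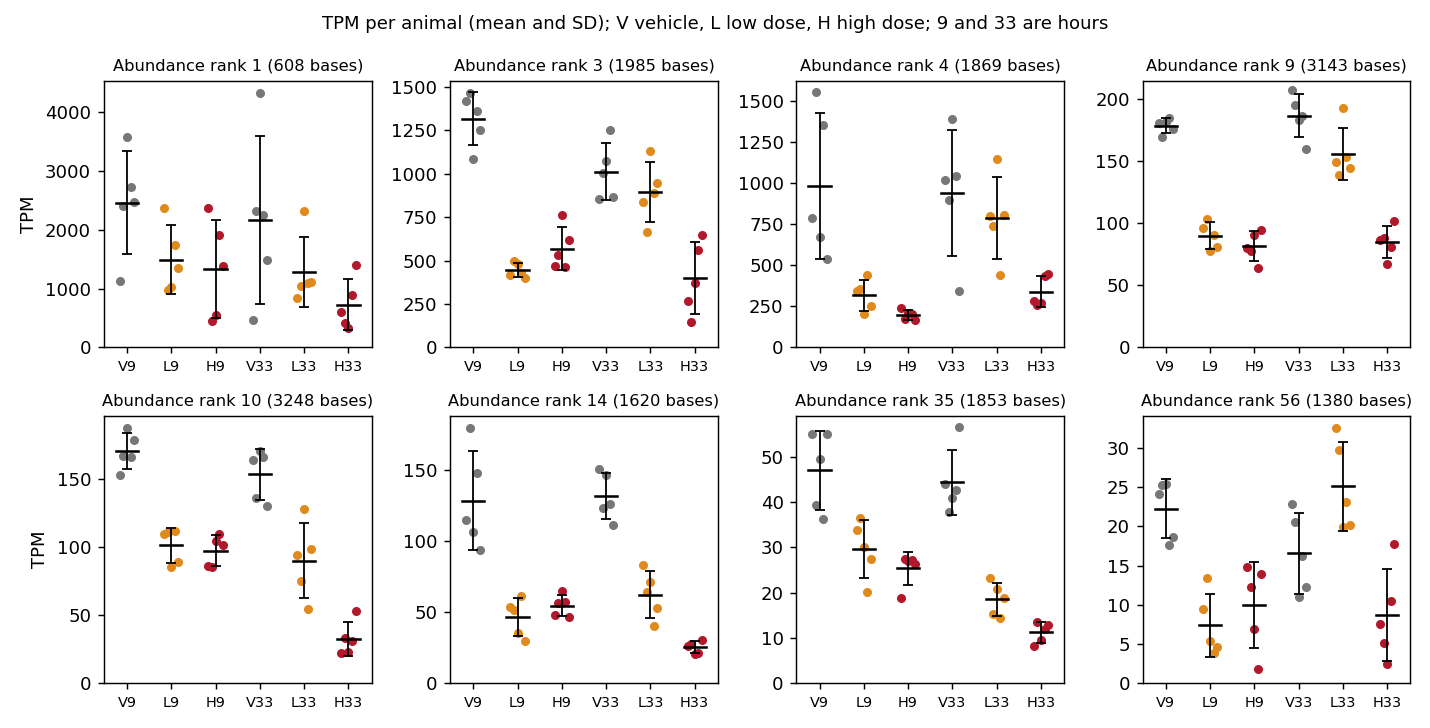
TPM of 8 members (panels, by abundance rank and length) in each animal, with the group mean and SD (bars, n = 5), for vehicle, low dose and high dose livers at 9 h and 33 h on the x axis; each y axis is linear, starts at 0 and has its own range. Ranks 3, 4, 9 and 56 are low at 9 h in both doses and higher at 33 h in the low dose, where rank 9 is still below vehicle (156 against 187 TPM) and rank 56 above it (25.1 against 16.6 TPM); ranks 10, 14 and 35 are low in the low dose at both times, and rank 1 overlaps between groups.

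The deepest sustained reduction, by the product of the ratios at both times, was that of ENSCPOT00000038935.1, the member of rank 76, of 798 bases, with ratios of 0.160 at 9 h and 0.149 at 33 h. Its vehicle livers held 6.19, 5.24, 7.18, 22.5 and 0 TPM at 9 h and 5.99, 3.22, 30.2, 7.27 and 2.75 TPM at 33 h, so 1 animal of each group set much of the mean. High dose livers held 0.515, 3.17, 0.0834, 1.06 and 1.33 TPM at 9 h and 1.86, 2.24, 0.531, 0.828 and 1.48 TPM at 33 h. It was listed at 0 in 4 of the 5 low dose livers at 9 h. This transcript averaged 63.4 estimated counts per library, and they were whole numbers in only 5 of 30 libraries, the remainder holding fractional counts, which arise where reads match several transcripts and are divided among them. A similar depth of reduction with tighter groups was seen for rank 60, of 2106 bases. It measured 21.3, 15.4, 16.1, 15.04 and 14.4 TPM in vehicle livers and 2.91, 4.31, 3.18, 3.46 and 3.14 TPM in high dose livers at 9 h, and 10.3, 14.1, 11.3, 16.3 and 18.7 TPM against 1.58, 2.33, 1.04, 3.68 and 5.94 TPM at 33 h. The vehicle and high dose animals did not overlap at either time. Low dose livers lay between them in mean, first at 5.88 ± 1.59 TPM and later at 7.76 ± 2.04 TPM (SD, n = 5 each). The smallest ratio at 33 h, 0.0716, belonged to rank 17, of 981 bases. Its vehicle animals ranged from 9.89 to 420 TPM at 9 h and from 16.9 to 229 TPM at 33 h, which overlapped the high dose animals at 9 h, at 25.8 to 67.2 TPM, and at 33 h, at 0.607 to 22.8 TPM.

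Against vehicle at 9 h, 74 of the 95 members were called lower at the low dose and 0 higher, where 11.2% of all transcripts tested were called lower and 13.5% higher, and 19.3% and 13.7% of those at or above 5 TPM (edgeR quasi-likelihood test, Benjamini-Hochberg adjusted p under 0.05). The members' median log2 fold change was -1.05, from -4.30 to -0.06, against 0.00 over all transcripts. The vehicle animals of this comparison also chose the members, so the low dose values are not independent of the rule. For rank 14, of 1620 bases, the 5 low dose animals held 53.4, 51.6, 34.998, 61.3 and 29.6 TPM and the vehicle animals 115, 180, 107, 148 and 93.6 TPM, with no overlap and a log2 fold change of -1.59 ± 0.23 (SE, edgeR adjusted p = 8.41e-06). Its low dose mean, 46.2 ± 13.3 TPM, was below its high dose mean of 54.4 ± 7.60 TPM (SD, n = 5 each), and the ranges overlapped. All 5 low dose animals lay below all 5 vehicle animals for 53 members, against 8.55% of the transcripts at or above 5 TPM. The low dose mean was under the high dose mean at 9 h for 32 of the 95, and the median ratio of high to low dose, 0.901, was that of the transcripts at or above 5 TPM in general, 0.902. All 5 high dose animals were below all 5 low dose animals for 8 members at 9 h, against 11.8% of those transcripts.

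At 33 h, 61 members were called lower at the low dose than in vehicle livers and 0 higher, against 11.4% called lower and 14.3% called higher among all transcripts, and 20.99% and 17.5% among those at or above 5 TPM (edgeR quasi-likelihood test, adjusted p under 0.05, the vehicle animals again being shared with the rule). The median log2 fold change was -0.76 over members and 0.03 over all transcripts. This count depended on the scaling. When libraries were scaled by their totals alone and not by TMM factors (scaling factors that hold the bulk of transcripts level between libraries), 35 members were called lower, against 3.86% of all transcripts tested, the members' median was -0.44 and that of all transcripts 0.36. All 5 low dose animals lay below all 5 vehicle animals in TPM for 13 members, 13.7%, against 3.41% of the transcripts at or above 5 TPM. Of the members, 53 were called lower at both times at the low dose, 21 at 9 h but not at 33 h, 8 at 33 h but not at 9 h, and 13 at neither time. These joint counts were not made over the other transcripts, and a missing call does not show that a level was unchanged. In TPM, the low dose mean was at most 0.6 of vehicle at both times for 17 members, at 9 h only for 52, at 33 h only for 3 and at neither time for 23. The 17 had a median ratio at the high dose, 33 h of 0.209 and the 52 of 0.436. Rank 14 was among the 17, with 83.0, 64.1, 71.1, 40.1 and 52.5 TPM in low dose livers at 33 h against 151, 123, 147, 126 and 112 TPM in vehicle livers and 26.3, 27.7, 20.1, 21.1 and 30.0 TPM in high dose livers, 3 groups that did not overlap.

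**Figure D3:**
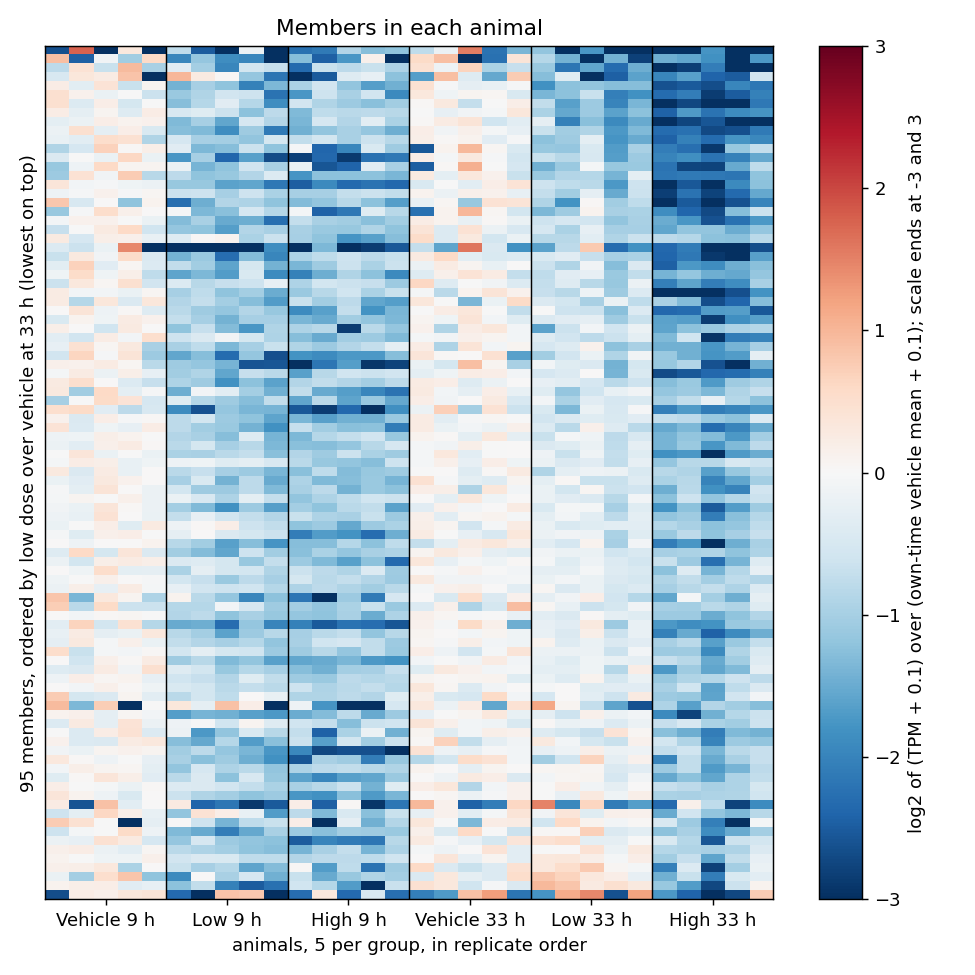
Level of each of the 95 members (rows, ordered by the ratio of low dose to vehicle at 33 h, lowest on top) in each of the 30 animals (columns, 5 per group), as log2 of TPM over the vehicle mean of the same time with 0.1 TPM added to both. Blue is below vehicle and red above, and the scale ends at -3 and 3; low dose columns are blue for most members at 9 h and paler at 33 h, except in the upper rows, where they stay blue.

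The animals compared here, low dose livers at 33 h against those at 9 h, had no part in the choice of members. The fit drew on all 6 groups for its estimate of spread. In this comparison 22 members were called higher at 33 h and 2 lower (edgeR quasi-likelihood test, adjusted p under 0.05), and 71 were not called. Without low dose animal 3 of 33 h, 13 were called higher and 4 lower. A fit of only the 2 groups compared called 22 members higher and 4 lower, without a count over the other transcripts. In the fit of all 6 groups, 13.6% of all transcripts tested were called higher and 12.7% lower. Among those at or above 5 TPM in vehicle livers the shares were 20.4% and 15.3%. The members' 23.2% called higher is thus close to the 20.4%, and their 2.11% called lower is below the 15.3%. The transcripts at or above 5 TPM were not matched to the members for abundance. Their median vehicle level was 15.7 TPM, against 24.1 TPM over members. The median log2 fold change was 0.31 over members, against 0.00 over all transcripts and 0.04 over those at or above 5 TPM. It was above the median of all transcripts for 67 of 95 members. Scaled by library totals, 32 members were called higher and 2 lower, against 20.6% and 7.75% of all transcripts tested. In TPM, all 5 animals of 33 h were above all 5 of 9 h for 25 members, 26.3%, a share near the 27.2% of the transcripts at or above 5 TPM. In vehicle livers the ratio of 33 h to 9 h had a median of 0.958 over members and ran from 0.481 to 1.86. When the vehicle difference was subtracted, which brings the vehicle animals back in, 6 members were called higher, or 6.32%, and 1 lower, or 1.05%. The shares were 5.77% and 5.56% of all transcripts, and 8.96% and 8.07% of those at or above 5 TPM.

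**Figure D4:**
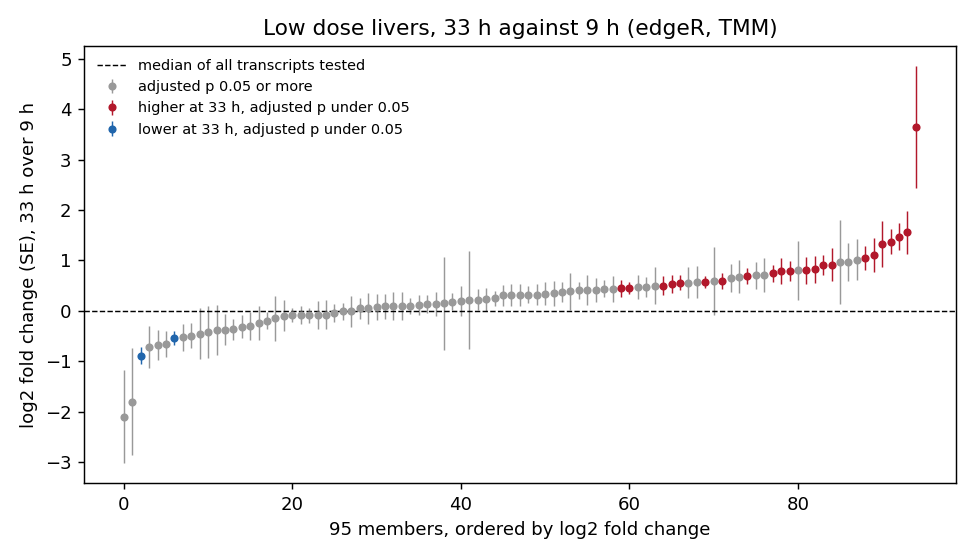
Log2 fold change of low dose livers at 33 h over 9 h for each of the 95 members (points, ordered by size on the x axis), with the SE as bars, from edgeR with TMM factors; red and blue mark adjusted p under 0.05, and the dashed line is the median of all transcripts tested. The 22 red points lie above 0 and the 2 blue points below it.

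The largest called rise was that of ENSCPOT00000038935.1, with low dose values of 0, 0, 0, 0 and 2.18 TPM at 9 h and 3.16, 5.70, 17.1, 1.90 and 2.72 TPM at 33 h. The groups overlapped, and the fitted log2 fold change was 3.65 ± 1.21 (SE, edgeR adjusted p = 0.0260). The size of this estimate rests on low dose animal 5 of 9 h, since the other 4 libraries were at 0. Without that animal the fitted value was 9.31 (edgeR adjusted p = 0.00132). The call was lost without any 1 of low dose animals 1 to 4 of 9 h (edgeR adjusted p from 0.0583 to 0.0618). It was also lost without low dose animal 3 of 33 h (2.64, edgeR adjusted p = 0.113). ENSCPOT00000000169.3, the member of rank 56, of 1380 bases, had the next largest rise. Its low dose livers held 9.48, 13.4, 5.37, 3.84 and 4.63 TPM at 9 h and 32.5, 29.8, 19.9, 23.1 and 20.2 TPM at 33 h, with no overlap. The log2 fold change was 1.56 ± 0.42 (SE, edgeR adjusted p = 0.00707). At 33 h its low dose livers were also above vehicle in mean TPM, 25.1 ± 5.73 against 16.6 ± 5.16 TPM (SD, n = 5 each), a difference that did not pass the test (edgeR adjusted p = 0.754). Its counts were whole numbers in 0 of 30 libraries, so its levels rest in part on reads divided among transcripts.

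Rank 27, of 1059 bases and with whole counts in all 30 libraries, reached the vehicle range at the low dose at 33 h. It held 22.6, 19.8, 13.5, 19.7 and 29.0 TPM in low dose livers at 9 h and 64.7, 65.3, 103, 46.5 and 50.6 TPM at 33 h, a log2 rise of 1.47 ± 0.27 (SE, edgeR adjusted p = 0.000216). Vehicle livers at 33 h held 70.4, 46.2, 96.5, 63.0 and 40.2 TPM, so the groups overlapped, the highest low dose animal being above the highest vehicle animal. High dose livers stayed level in TPM, 26.3 ± 1.49 TPM early and 25.9 ± 6.13 TPM late (SD, n = 5 each). Over the transcripts at or above 5 TPM the median ratio of 33 h to 9 h at the high dose was 1.53. Ranks 3, 4 and 9 were also called higher, by 0.78 ± 0.26, 1.11 ± 0.34 and 0.57 ± 0.12 on the log2 scale (SE, edgeR adjusted p = 0.0247, 0.0151 and 0.00101). Rank 10 was not called, with a log2 fold change of -0.37 ± 0.21 (SE, edgeR adjusted p = 0.219), and neither was rank 1, at -0.38 ± 0.50 (SE, edgeR adjusted p = 0.640).

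The 2 members called lower at 33 h were picked out after their values were seen. Rank 35, of 1853 bases, held 33.9, 36.6, 30.1, 20.1 and 27.4 TPM in low dose livers at 9 h and 23.2, 15.4, 20.8, 14.5 and 18.8 TPM at 33 h, overlapping in 1 animal of 9 h, with a log2 fold change of -0.89 ± 0.17 (SE, edgeR adjusted p = 0.000353). Vehicle livers were level at 47.1 ± 8.84 and 44.5 ± 7.19 TPM, and high dose livers followed the same course from 25.4 ± 3.66 to 11.2 ± 2.31 TPM (SD, n = 5 each). Rank 77, of 2043 bases, went from 7.61 ± 0.801 to 6.08 ± 0.866 TPM at the low dose (SD, n = 5 each), with a log2 fold change of -0.55 ± 0.14 (SE, edgeR adjusted p = 0.00406). Its vehicle livers were at 9.25 ± 1.26 and 7.92 ± 1.06 TPM (SD, n = 5 each). Its individual low dose values were 8.29, 8.49, 7.14, 7.59 and 6.56 TPM at 9 h and 6.94, 5.86, 6.27, 4.71 and 6.62 TPM at 33 h. These ranges overlapped. Less the vehicle difference between times, the log2 fold change of rank 77 was -0.38 ± 0.19, which did not pass the test (SE, edgeR adjusted p = 0.226).

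Between the doses at 33 h the high dose mean was under the low dose mean for all 95 members, with a median ratio of 0.521, against 1.11 over the transcripts at or above 5 TPM. All 5 high dose animals lay below all 5 low dose animals for 50 members, against 8.37% of those transcripts. The high dose animals chose the members, so this order is a description. Vehicle, low dose and high dose means stood in falling order for 62 members at 9 h and for 83 at 33 h. The rule held the high dose mean under the vehicle mean at both times. These counts were not made over the other transcripts. From 9 h to 33 h at the high dose, 60 members had a lower and 35 a higher mean TPM, with a median ratio of 0.872, against 1.53 over the transcripts at or above 5 TPM. Within the 33 h high dose group the animals differed, the median member being at 27.6% of vehicle in animal 3 and at 53.9% in animal 5. Without high dose animal 5 of 33 h the rule gave 107 members, and without animal 3 it gave 85.

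Length and the assignment of reads had no part in the rule, and differences in them were not tested. The members' median length was 2314 bases, from 282 to 10299, against 2069 bases over the transcripts at or above 5 TPM, and 13.7% were shorter than 1000 bases, against 17.5%. Estimated counts were whole numbers in all 30 libraries for 43 members, 45.3%, against 47.0% of the transcripts at or above 5 TPM; whole counts throughout mean that no fractional share of reads was given to the transcript. The 43 had median ratios to vehicle of 0.462 and 0.405 at the high dose and 0.501 and 0.737 at the low dose, at 9 h and 33 h. The other 52 had 0.510 and 0.454 at the high dose and 0.523 and 0.787 at the low dose. Against vehicle, 33 of the 43 and 41 of the 52 were called lower at the low dose at 9 h, and 29 and 32 at 33 h. Of the transcripts at or above 5 TPM, 19.3% were called lower at 9 h and 20.99% at 33 h. The vehicle animals of these comparisons also chose the members. Of the 22 members called higher at 33 h than at 9 h in low dose livers, 9 were among the 43, where 20.4% of the transcripts at or above 5 TPM were called higher. Over the abundance classes the median ratio at the high dose at 9 h ran from 0.470 to 0.505. Members of 100 to 1000 TPM had median ratios of 0.321 at the high dose and 0.694 at the low dose at 33 h, and those of 5 to 10 TPM 0.50004 and 0.780.

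Vehicle livers themselves varied for part of the members. The coefficient of variation over the 10 vehicle animals had a median of 25.4%. It was under 20% for 32 members and over 50% for 11, among them ranks 2, 16, 17 and 76. Over the 5 vehicle animals of 9 h the members' median coefficient was 25.3%, against 11.8% over the transcripts at or above 5 TPM. For the 5 of 33 h the medians were 21.5% and 12.8%. The members were thus more variable in vehicle livers than those transcripts in general. In 10 members the highest vehicle animal of at least 1 time was at least 10 times the lowest, with 0.1 TPM added to both. This count was not made over the other transcripts. Of these wide members, rank 16, of 676 bases, ran from 15.1 to 234 TPM over the 10 vehicle animals. In the 56 members kept without each vehicle and high dose animal in turn, 49 were called lower at the low dose at 9 h and 40 at 33 h, and 12 were called higher and 1 lower in low dose livers at 33 h against 9 h (edgeR quasi-likelihood test, adjusted p under 0.05). The 49 and 40 are 87.5% and 71.4%, against 19.3% and 20.99% of the transcripts at or above 5 TPM. The 12 and 1 are 21.4% and 1.79%, against 20.4% and 15.3%, so the share called higher was near that of the transcripts at or above 5 TPM.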

How the data were processed

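Poly-A enriched, stranded, paired-end RNA libraries were made from 30 livers, 1 per animal, per the labels' protocols; replicates are separate animals, as the design text describes 30 animals. The authors quantified transcripts with kallisto 0.42.4, per the submitters' processing notes, while which transcript release was used is not given in the sources used here. The deposited values are an estimated count per transcript and TPM, per the file headers. Members were chosen from TPM. Estimated counts were rounded and tested with edgeR 4.0.16 (R 4.3.3) in 1 quasi-likelihood fit over all 6 groups (24 residual degrees of freedom) after filterByExpr (minimum count 10, minimum total 15), with TMM factors and Benjamini-Hochberg adjustment over 18239 transcripts. The fit was tested on simulated data. DESeq2 1.42.0, other scalings and filters, and leaving out each animal were alternatives. Counts were called whole within 1e-06.

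The members and lists were chosen with earlier results of these data known. Identifiers were printed for the member with the smallest product of ratios, the most abundant, and the 2 largest called rises at the low dose; other members described singly were chosen after their values were seen. The gene lists and cell markers drawn up for this work could not be used, since no identifier was paired with a gene name. No sequences are shown for the same reason. Library totals limit the precision of members with few counts.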

Additional observations from a re-analysis of the deposited data

Results flagged for a closer look

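For 18 members (the 10 most abundant and others described singly) and 3 summaries over the members, 126 groups of 5 were checked for an animal far from the other 4 (a gap to the nearest animal above Dixon's critical value, as a share of the group's range), and 12 were found; chance marks about 1 in 20 such groups. Low dose animal 3 at 33 h was the highest of its group for rank 1 (2316 TPM), rank 2 (1251 TPM), rank 9 (193 TPM) and rank 76 (17.1 TPM). For rank 76, single animals also stood high in low dose livers at 9 h (2.18 TPM) and in vehicle livers at 33 h (30.2 TPM). Rank 17 had a single high animal in vehicle livers at 33 h (229 TPM) and in high dose livers at 33 h (22.8 TPM), and rank 5 in high dose livers at 9 h (512 TPM). Rank 60 had a single high vehicle animal at 9 h (21.3 TPM) and a single low animal at the low dose at 33 h (4.21 TPM), and rank 35 a single low animal at the high dose at 9 h (18.9 TPM).

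The effect of the low dose against vehicle differed between 33 h and 9 h for 4 of the members described, by a test of the difference itself. Over all 95 members this test called 6.32% higher and 1.05% lower. The shares were 5.77% and 5.56% of all transcripts tested, and 8.96% and 8.07% of those at or above 5 TPM, so such calls were not particular to the members. On the log2 scale the effect at 33 h minus that at 9 h was 1.94 ± 0.59 for rank 56, 1.10 ± 0.36 for rank 3, 1.24 ± 0.38 for rank 27 and -0.87 ± 0.24 for rank 35 (SE, edgeR adjusted p = 0.0321, 0.0478, 0.0326 and 0.0187). These differences use the vehicle animals that also chose the members. For rank 56 the low dose mean TPM was below the vehicle mean at 9 h and 1.52 times the vehicle mean at 33 h. In the fit with TMM factors its low dose against vehicle at 33 h was 0.22 ± 0.41 on the log2 scale, which did not pass the test (SE, edgeR adjusted p = 0.754).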

How the results depend on the processing

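Low dose livers at 33 h against 9 h gave 24 called members, 17 to 29 when each animal was left out (13 higher and 4 lower without low dose animal 3 of 33 h), 7 after subtracting the vehicle difference between times and 13 among the 56 members kept in all 20 leave-outs; the last pair of settings was added after seeing the data. Members called lower at the low dose against vehicle at 9 h numbered 74, with 66 to 74 over leave-outs and 49 among the 56. At 33 h they numbered 61, with 45 to 69 over leave-outs (45 without low dose animal 4), 35 with library totals and 40 among the 56. The number of members was 37 at a ratio of 0.5, 203 at 0.7, 152 with a floor of 1 TPM and 85 to 107 over leave-outs. With CPM over TMM-scaled totals it was 196, of which 77 were among the 95. In that setting the floor was 5 CPM, a unit not scaled by length, so the transcripts that could enter differed as well as the scaling. The cause was not tested, except that the 56 are fewer members by construction. DESeq2 called 29, 76 and 67 members in the 3 comparisons. The rise of ENSCPOT00000038935.1 was 2.64 to 9.31 on the log2 scale over leave-outs and was not called in 5 of them, nor in a fit of only the 2 groups (3.64, edgeR adjusted p = 0.0666). No paired analysis was possible because the labels number no replicates and name no unit shared between groups; the animal numbers used here only name animals within a group.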
